A study of Mus musculus with 36 samples.

Results

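RU486, also called mifepristone, was added together with corticosterone to mouse cortical astrocyte cultures, and the messenger RNA after 2 h was set against that of cultures given corticosterone alone. The comparison rests on 6 of the 36 arrays of the series, 3 labelled as corticosterone with RU486 and 3 as corticosterone, chosen by these labels and not by any measured value. The first group had 100 nM corticosterone and 500 nM RU486 in the medium and the second 100 nM corticosterone only. Arrays with 500 nM RU486 alone and with vehicle, 3 each, were taken at the same 2 h. Each of these 4 treatments was also sampled at 4 h and at 6 h. All cultures came from the brain of newborn C57B/6 pups (postnatal day 0 to 2) and were grown in medium with serum until they were nearly confluent. The growth protocol speaks of cortex or hippocampus, while the samples themselves are called cortical. Whether the replicates are separate cultures is not stated in the labels. The p-values therefore speak only of the variation from array to array, part or all of which may be technical.

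Corticosterone is the main glucocorticoid of mice and rats. It binds the glucocorticoid receptor (gene Nr3c1), which then moves into the nucleus, attaches to DNA at glucocorticoid response elements and raises the transcription of some genes while lowering that of others. RU486 occupies the same pocket of the receptor and holds it in a form that recruits coactivators poorly. It also binds the progesterone receptor. Astrocytes carry much glucocorticoid receptor and are among the brain cells whose transcripts respond to the hormone.

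Among the genes lower with RU486 was the kinase gene Sgk1, a classical target of the receptor, and its promoter is shown because it holds the full palindromic consensus of a glucocorticoid response element. The consensus searched was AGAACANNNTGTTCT, with its shorter core ACANNNTGT lying inside it, on both strands of windows reaching from 250 bases before to 50 bases after each RefSeq gene start in mouse build GRCm38.p6. Of the 18935 genes tested, 11383 had at least 1 window, and the full consensus was found in 1 of them, Sgk1. Over all 32851 windows of the table, 3 held it, which is 0.00913%. The match lay in the window chr10:21993640-21993939 on the plus strand and began at position -189 relative to the annotated start. In the Sgk1 window the capitals mark the full consensus, and in the Fam107a window (chr14:8309730-8310029, minus strand, core at position -116) they mark the core.

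Sgk1: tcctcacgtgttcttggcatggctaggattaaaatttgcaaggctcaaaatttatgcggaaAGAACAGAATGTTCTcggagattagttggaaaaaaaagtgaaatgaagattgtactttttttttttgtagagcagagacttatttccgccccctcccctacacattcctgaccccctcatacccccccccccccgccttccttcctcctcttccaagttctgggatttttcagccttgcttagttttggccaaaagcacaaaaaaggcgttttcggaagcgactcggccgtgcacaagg
Fam107a: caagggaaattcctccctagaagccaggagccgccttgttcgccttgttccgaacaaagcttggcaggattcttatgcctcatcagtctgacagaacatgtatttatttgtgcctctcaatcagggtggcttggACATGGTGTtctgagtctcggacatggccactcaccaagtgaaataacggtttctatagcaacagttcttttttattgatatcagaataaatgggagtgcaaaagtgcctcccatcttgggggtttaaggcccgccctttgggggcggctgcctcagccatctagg

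Of the 32 genes lower with RU486, 28 matched a window, and 4 of those 28 (14.3%) held the core: Sgk1, Fam107a, Slc10a6 and Sipa1l1. The core occurred in 660 of the 11383 matched genes (5.8%) and in 6.85% of all windows. Of the 106 genes higher with RU486, 78 matched a window and 4 of those 78 (5.13%) held it. The 28 lower genes had 51 windows and the 11383 genes 14450. The lower genes thus had more windows per gene in which to find a match. A match is a run of letters only, and genes without one in these windows may hold it elsewhere.

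Adding RU486 to corticosterone lowered a small group of well known glucocorticoid targets within 2 h, among them Sgk1, Tsc22d3, Fkbp5, Per1 and Klf9, by 1.36 to 1.64 on the log2 scale. It raised a larger group of genes. Leaving out predicted genes and clones, the largest rises were in the repressor Zhx2, the β-catenin cofactor Bcl9l, the intermediate filament gene Gfap and the translocase subunit Tomm6. Of the genes named here, Klf9, Zhx2 and Gfap lost their call whichever of the 6 arrays compared was dropped. In all, 138 of 18935 genes (0.729%) passed an adjusted p of 0.05 in limma, a linear model fitted to the 12 arrays of 2 h with Benjamini-Hochberg adjustment. Of these, 106 were higher with RU486 (0.56% of the genes tested) and 32 were lower (0.169%). At an unadjusted p under 0.05 there were 2792 genes. With the replicate number as a block, the same test called 474 genes, 268 higher and 206 lower, and all 138 were among them.

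The called differences ran from -1.69 to -0.56 for the lower genes, with a median of -1.001, and from 0.53 to 1.67 for the higher genes, with a median of 0.84. A difference of at least 1.0, which is a doubling of the ratio in either direction, was reached by 16 lower and 31 higher genes. In every one of the 138 genes the 3 arrays with RU486 and the 3 with corticosterone did not overlap, and 26.9% of all genes tested were separated in the same way. The count was sensitive to single arrays. It was 64 without replicate 1, 1 without replicate 2 and 3 without replicate 3 of corticosterone with RU486, and 43, 1 and 1 without replicate 1, 2 or 3 of corticosterone. The number 1 arrays of the 2 h groups deviated together. In a fit of replicates 2 and 3 alone, added after the data were seen, 1959 genes were called, all 138 among them.

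The lower genes that act closest to the receptor are described first. Sgk1 encodes a serum- and glucocorticoid-induced kinase that regulates ion channels and transporters. It measured 3874.5, 3770 and 3722.5 intensity units with RU486 added, against 9453, 11283 and 12188 with corticosterone alone. RU486 alone gave 4765, 4332 and 4008.5, and vehicle gave 2899, 3064 and 3381. All 3 corticosterone arrays stood far above the 9 others, and the arrays with both compounds lay between those of vehicle and those of RU486 alone. The log2 difference was -1.53 with a standard error (SE) of 0.12 (limma adjusted p = 0.000255). Among the 28 genes named by size, Sgk1 was the 1 that stayed called whichever of the 6 arrays was dropped.

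Tsc22d3, also called GILZ, encodes a leucine zipper protein that binds inflammatory transcription factors. Its intensity was 1296, 1035 and 1047.5 with both compounds and 3482, 3573 and 3331 with corticosterone. RU486 alone had 1802, 1139 and 1005 and vehicle 753, 1032 and 1238. The corticosterone arrays were again apart, and the other 3 groups overlapped one another. The difference was -1.63 (SE 0.21, limma adjusted p = 0.00866), and the gene's other probe was called in the same direction.

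Fkbp5 encodes a co-chaperone that binds the receptor complex and lowers its affinity for the hormone. It had 309, 251 and 244 with both compounds, against 722.5, 744 and 593 with corticosterone. In RU486 arrays it had 487, 269.6 and 214, and in vehicle arrays 230.5, 184 and 242. Arrays with both compounds thus fell to within the range of RU486 alone, just above vehicle, and the difference was -1.36 (SE 0.24, limma adjusted p = 0.0246).

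Of the transcription regulators, Klf9, a Krüppel-like factor, had 1371, 1699 and 2271 with both compounds, against 4605, 5591 and 6227 with corticosterone. RU486 alone had 734, 1903 and 1998, and vehicle 2111, 1674 and 1723. The arrays with both compounds and those with corticosterone did not overlap, at -1.64 (SE 0.31, limma adjusted p = 0.0362), while replicate 1 of RU486 alone lay below all other arrays of 2 h. Per1, a repressor of the circadian clock, had 687, 881 and 1088 with both compounds, against 2198, 2590.5 and 1983 with corticosterone. Its difference was -1.37 (SE 0.19, limma adjusted p = 0.0145), and 1 of its 2 other probes was called. Ciart, another circadian repressor, had 343, 242.5 and 257 with both, against 865, 539 and 769, and differed by -1.36 (SE 0.26, limma adjusted p = 0.0363). RU486 alone gave 608, 523 and 405 for Ciart and vehicle 451, 231 and 240, so that RU486 alone overlapped the corticosterone group. Both other probes of Ciart were called too. Csrnp1, a nuclear protein of the immediate-early class, had 1134, 1060 and 1109 with both compounds and 2843, 2695 and 2429 with corticosterone, a difference of -1.27 (SE 0.22, limma adjusted p = 0.0232). For Csrnp1, RU486 alone gave 2288, 1545 and 1328 and vehicle 1819, 1045 and 1062, with replicate 1 the highest in each. The BTB zinc finger repressors Zbtb16 and Bcl6 differed by -0.96 (SE 0.14) and -0.76 (SE 0.15).

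Signalling proteins formed a further set. Pim3, a kinase that favours cell survival, had 1004, 1168 and 1186 with both compounds, against 3006, 2493 and 3031 with corticosterone (-1.34, SE 0.19, limma adjusted p = 0.0156). Spsb1, a substrate adaptor of a ubiquitin ligase, had 1437, 1473 and 1628, against 3768, 3571 and 3518 (-1.26, SE 0.15, limma adjusted p = 0.00776). Errfi1, a feedback inhibitor of the EGF receptor, had 1378.5, 1103 and 919, against 2527, 2420.1 and 1987.5 (-1.04, SE 0.16, limma adjusted p = 0.0177). For all 3, the highest array with both compounds was well under the lowest array with corticosterone.

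The cytoskeletal and metabolic genes included the lowest difference among the called genes. Fam107a, an actin-associated protein induced by stress, had 388, 439 and 556 with both compounds, against 1203, 1565 and 1699 with corticosterone. In RU486 arrays it had 1032, 505 and 480.5, and in vehicle arrays 242, 317 and 407. Its difference was -1.69 (SE 0.27, limma adjusted p = 0.0217), and the RU486 array of replicate 1 came close to the corticosterone group. Bcat1, which transaminates branched-chain amino acids in the cytosol, had 354, 242 and 291 with both and 647, 623 and 629 with corticosterone (-1.12, SE 0.19, limma adjusted p = 0.0232). Pdk4, a kinase that inhibits pyruvate dehydrogenase, had 913, 856.5 and 852, against 1664, 1868 and 1910 (-1.05, SE 0.22, limma adjusted p = 0.048), and its other probe was not called. With both compounds Pdk4 thus fell to about the highest vehicle array, whose group had 456, 558 and 900.5. Slc25a33, a mitochondrial carrier of pyrimidine nucleotides, was lower by -0.72 (SE 0.11, limma adjusted p = 0.0177).

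Gjb6, which encodes connexin 30 of astrocyte gap junctions, had 132, 93.3 and 115 with both compounds, against 212, 240.0 and 269.7 with corticosterone (-1.09, SE 0.19, limma adjusted p = 0.0249). Hif3a, a hypoxia-inducible factor subunit, had 90.4, 88.7 and 95.2, against 166.5, 143 and 159 (-0.77, SE 0.13, limma adjusted p = 0.023). Slc10a6, a transporter of sulfated steroids, had 89.5, 93.3 and 84.8, against 135, 131 and 128 (-0.56, SE 0.12, limma adjusted p = 0.0474). The array medians lay between 110.5 and 111.2, and no background had been subtracted. The differences of these 3 dim genes may therefore be understated, and their size is uncertain.

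**Figure D1:**
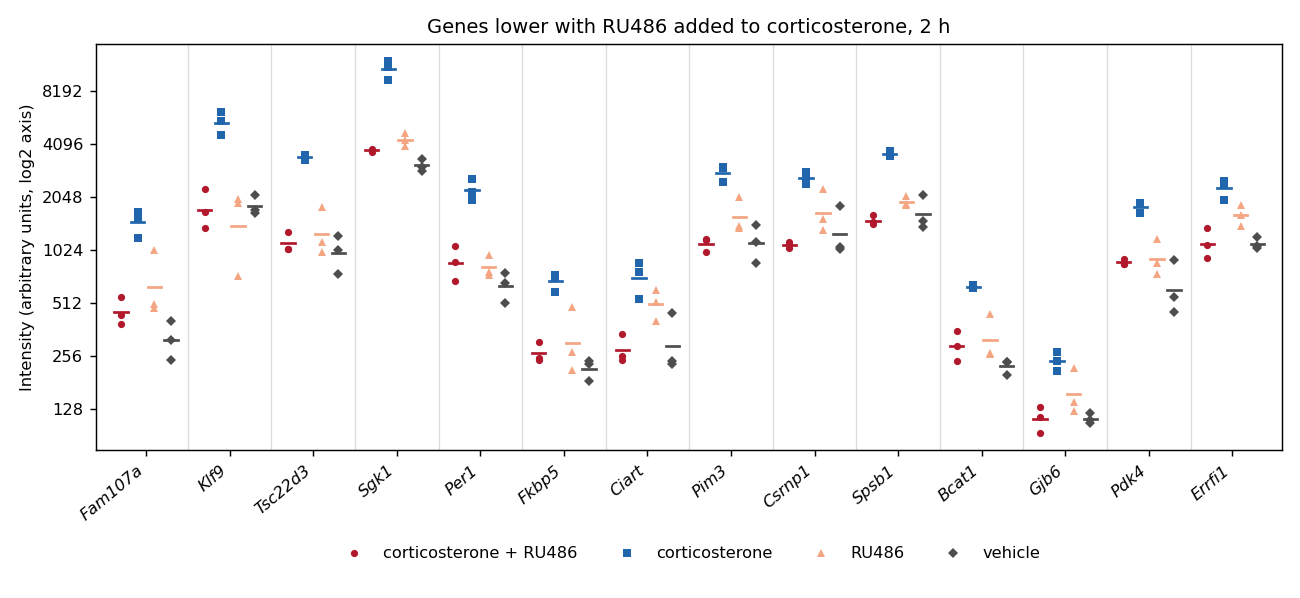
Intensity (log2 axis, arbitrary units) of the 14 lowest named genes on each of the 12 arrays of 2 h; points are arrays and bars group means on the log2 scale. The 3 corticosterone arrays lie above the 3 arrays with RU486 added in each gene, as for Sgk1 with 9453 to 12188 against 3722.5 to 3874.5 in the group with both compounds.

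The genes higher with RU486 were ordered in the same way, by what they do. Zhx2, a zinc finger and homeobox repressor, had 1062, 716 and 1067 with both compounds, against 302, 315 and 269.6 with corticosterone. RU486 alone gave 511, 419 and 441, and vehicle 412, 871 and 1071. Corticosterone arrays were the lowest of the 12, and vehicle reached from near the RU486 group to the level of both compounds. The difference was 1.66 (SE 0.28, limma adjusted p = 0.0225). Bcl9l, a cofactor of β-catenin in Wnt signalling, had 1626, 2174 and 2740 with both compounds, against 846, 631 and 575 (1.66, SE 0.22, limma adjusted p = 0.00866). Its relative Bcl9 was higher by 1.20. Nkx2-2, a homeobox factor of the oligodendrocyte lineage, had 1071, 1541 and 1634, against 589, 565 and 590 (1.26, SE 0.25, limma adjusted p = 0.0408). Ssbp3, a cofactor of LIM-domain transcription complexes, had 3844.5, 4037 and 4637, against 1737, 1839 and 1767 (1.22, SE 0.24, limma adjusted p = 0.0384). Polr2a, the largest subunit of RNA polymerase II, had 849.6, 1279 and 1686, against 557, 558 and 447 (1.24, SE 0.22, limma adjusted p = 0.0246).

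Among structural genes, Gfap, the intermediate filament protein that defines astrocytes, had 16336, 18713 and 27412 with both compounds, against 7031, 5998 and 6571 with corticosterone. In RU486 arrays it had 12067, 12562 and 15077, and in vehicle arrays 6679, 18215 and 19330. Vehicle replicate 1 lay inside the corticosterone range, and the other vehicle arrays lay inside the range with both compounds. The difference was 1.64 (SE 0.32, limma adjusted p = 0.0405). Fscn1, the actin-bundling protein fascin, had 10352, 6919 and 7830 with both, against 3811, 3420 and 2732 (1.33, SE 0.26, limma adjusted p = 0.042). Clip2, a microtubule linker protein, had 1535, 1486 and 2012, against 791, 656 and 592 (1.30, SE 0.27, limma adjusted p = 0.0498). Ap2a1, a subunit of the clathrin adaptor AP-2, had 842, 1282 and 1621, against 591.5, 384 and 354 (1.48, SE 0.31, limma adjusted p = 0.0474). In these 3 genes as well, vehicle replicate 1 was the lowest of its group.

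Of single genes that act on proteins and sulfur, 4 are described next. Tomm6, a small subunit of the mitochondrial import channel, had 2338, 3603 and 4687 with both compounds, against 1387, 1042 and 946 (1.62, SE 0.29, limma adjusted p = 0.0246), and its other probe was called. Psme3, a nuclear activator of the proteasome, had 1849.5, 2973 and 3001, against 936, 810 and 839 (1.57, SE 0.28, limma adjusted p = 0.0264). Selenow, a small selenoprotein, had 3178, 3760 and 4078, against 1684, 1184 and 1053 (1.51, SE 0.19, limma adjusted p = 0.00866). In the gene list that each of these 3 belongs to, no other member was called. Tst, a mitochondrial thiosulfate sulfurtransferase, had 3554.5, 3975 and 4745, against 1738, 1703 and 1595 (1.28, SE 0.20, limma adjusted p = 0.0177).

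Phlda1, a pleckstrin homology-like protein counted here with the feedback inhibitors of MAP kinase signalling, had 1156, 1312 and 1792.5 with both compounds, against 559, 591 and 468 with corticosterone (1.38, SE 0.18, limma adjusted p = 0.00866). RU486 alone gave 1233, 936 and 1109 and vehicle 902, 1258.5 and 1124, so that corticosterone was the 1 treatment whose arrays stood apart. Dhcr7, the enzyme of the last step of cholesterol synthesis, was higher by 0.88 (SE 0.15, limma adjusted p = 0.0244).

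**Figure D2:**
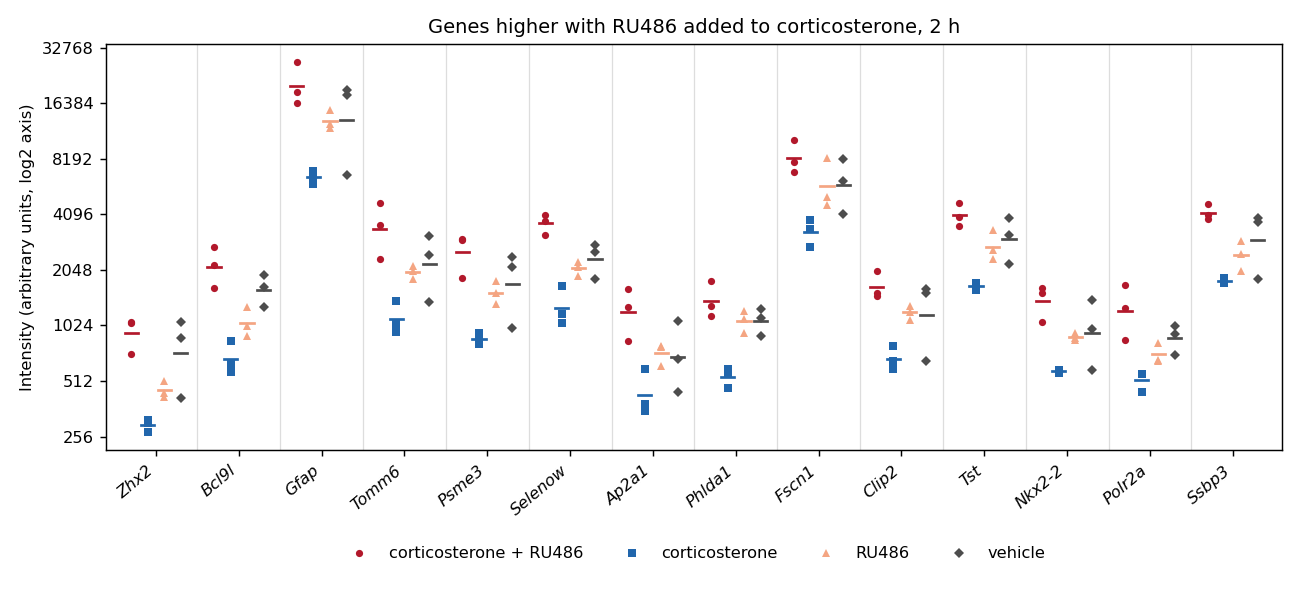
Intensity (log2 axis, arbitrary units) of the 14 highest named genes on each of the 12 arrays of 2 h; points are arrays and bars group means on the log2 scale. The 3 arrays with RU486 added lie above the 3 corticosterone arrays in each gene, as for Gfap with 16336 to 27412 against 5998 to 7031, and vehicle is spread widely in several genes.

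The lower and higher genes differed in how far other probes of the same gene moved with them. Of the 32 lower genes, 12 had further probes that passed the filter, 17 in all, and 16 of those 17 differed in the same direction, 8 of them at an unadjusted p under 0.05. Of the 106 higher genes, 51 had further probes, and 50 of those 90 probes differed in the same direction, 21 of them at an unadjusted p under 0.05. Among all 18935 genes, 9511 lay above 0 and 2792 had an unadjusted limma p under 0.05 in either direction. For the higher genes, the share of other probes in the same direction was thus near that of all genes above 0. Among the genes named above, no other probe was called for Pdk4, Hif3a, Slc10a6, Gfap, Ap2a1, Nkx2-2, Bcl9l, Bcl9, Clip2, Ssbp3 or Tst. In the opposite direction lay the 1 other probe of Tst, 1 of 2 for Bcl9l, Clip2 and Hif3a, and 2 of 3 for Bcl9. The calls of all these genes therefore rest on 1 probe each. For Ap2a1, Nkx2-2 and Bcl9, 1 other probe had an unadjusted limma p under 0.05 in the same direction. Genes such as Sgk1, Fam107a, Fkbp5, Zhx2 and Phlda1 had 0 other probes that passed the filter and also rest on 1. Klf9, Ciart, Csrnp1, Pdk4, Zhx2, Gfap, Fscn1, Clip2 and Ssbp3 lost their call whichever of the 6 arrays was dropped, with adjusted p from 0.0524 to 0.264 in those fits, and none of the 28 genes changed direction.

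Vehicle and RU486 arrays of 2 h show where these genes stood without added hormone. The 3 comparisons that follow share arrays with the one above, and the genes were chosen on those arrays, so their values are a description. Against vehicle, corticosterone called 16 genes (0.0845%), 14 higher (0.0739%) and 2 lower (0.0106%), while corticosterone with RU486 called 0 and RU486 alone called 0. At an unadjusted p under 0.05 limma gave 942, 1118 and 1793 genes for these 3 comparisons. With limma array weights the last 2 had 0 and 10 calls, and in the fit of 34 arrays 1 and 604.

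For the 32 lower genes, the median difference from vehicle was -0.06 with both compounds, 0.97 with corticosterone and 0.30 with RU486 alone. All 32 were above 0 with corticosterone, and 13 of them were among its 14 called genes. With both compounds 13 were above vehicle and 19 below it, and with RU486 alone 26 of 32 were above vehicle, where the median of all genes was 0.03. Averaged over the 32 genes, the 3 arrays stood 0.04, -0.06 and -0.04 from the vehicle mean with both compounds and 1.03, 1.00 and 1.05 with corticosterone. The RU486 arrays stood at 0.44, 0.23 and 0.17 and the vehicle arrays at 0.15, -0.12 and -0.04. Every RU486 array was thus above every vehicle array and every array with both compounds, and RU486 against vehicle called none of these genes.

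For the 106 higher genes, the median difference from vehicle was 0.36 with both compounds, -0.50 with corticosterone and -0.09 with RU486 alone. All 106 lay above vehicle with both compounds and below it with corticosterone, and 2 of them, Rad23b and Arl4c, were called lower with corticosterone. Array means over the 106 genes were 0.30, 0.33 and 0.48 with both compounds, -0.44, -0.55 and -0.66 with corticosterone, -0.06, -0.20 and -0.11 with RU486 alone and -0.25, 0.16 and 0.10 with vehicle. The vehicle mean lay between corticosterone and corticosterone with RU486 in all 106 higher genes and in 19 of the 32 lower genes. The same held for 9147 of all 18935 genes. That share is no fair measure for the called genes, which were chosen for a gap between those same 2 groups. On these arrays the lower genes were near vehicle once RU486 was added, and the higher genes were above it, though no single gene was called against vehicle.

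**Figure D3:**
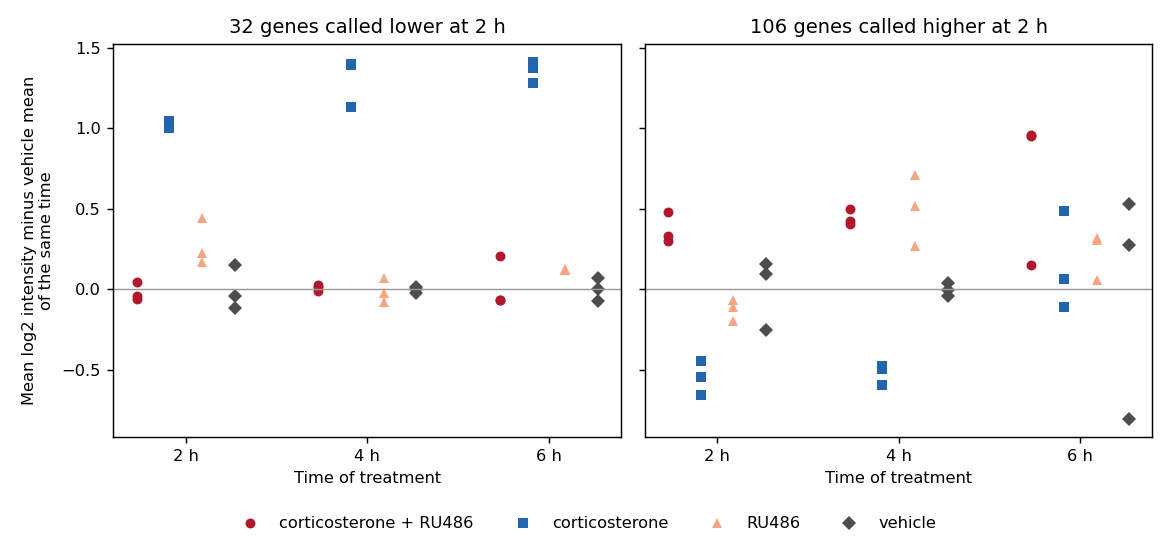
Mean log2 intensity of the 32 lower and the 106 higher genes on each array, minus the vehicle mean of the same time (log2 units); each point is 1 array. At 2 h the lower genes stand at 1.00 to 1.05 with corticosterone and at -0.06 to 0.04 with both compounds, and in the higher genes at 6 h replicate 3 with both compounds (0.15, the others near 0.96) and vehicle replicate 1 (-0.80) stand apart.

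The 26 gene lists were read against the 0.729% of genes called overall. Lists and members were chosen with earlier results of these data known, so their counts are a description and not independent support. Of 32 glucocorticoid-induced genes, all measured, 11 were lower with RU486 and 0 higher, with a median difference of -0.68, where the median of all genes was 0.001. The 11 were Fam107a, Klf9, Tsc22d3, Sgk1, Per1, Fkbp5, Pdk4, Errfi1, Zbtb16, Bcl6 and Hif3a. Of the 32, 26 lay below 0, and in 24 the groups did not overlap downward, which 12.2% of all genes did. Members short of the threshold included the NF-kB inhibitor gene Nfkbia at -0.61 (limma adjusted p = 0.0834), the growth arrest gene Gadd45g at -0.68 (0.0606) and the sulfotransferase gene Sult1a1 at -0.87 (0.183). Angptl4, an inhibitor of lipoprotein lipase, differed by 0.55, and the metallothionein gene Mt1 by 0.02. The count of 11 was 14 with the replicate block, 19 with the 6 arrays alone, 18 with 34 arrays, 20 with array weights, 7 with normexp at an offset of 16 and 1 to 6 with 1 array left out.

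The probe of the receptor gene lay near the array median. Nr3c1 had 101, 117 and 122 with both compounds, against 87.6, 125 and 95.9 with corticosterone, so that its groups overlapped (0.16, SE 0.15). Of 15 measured genes of the receptor and its cofactors none was called. The co-chaperone Fkbp4 differed by 0.49 (SE 0.14, limma adjusted p = 0.115). None of the 3 measured receptors of the list of other RU486-binding receptors was called, and Pgr, the progesterone receptor gene, did not pass the brightness filter.

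Other lists had 1 or 2 called members. The clock list (14 measured) had Per1 and Ciart lower and a median of -0.25, and Per2 at -0.56 (limma adjusted p = 0.0558) fell short. The immediate-early list (21) had Csrnp1 lower, and its Junb, an AP-1 subunit, was at 0.85 (0.0683). The MAP kinase feedback list (13) had Errfi1 lower and Phlda1 higher. In the mitochondrial import list (16), the proteasome list (31) and the selenoprotein and redox list (27), Tomm6, Psme3 and Selenow were the 1 called gene each, and the medians were 0.14, -0.02 and 0.00. The cholesterol list (22) had Dhcr7 higher, the glycolysis list (24) Pdk4 lower and the reactive astrocyte list (22) Gfap higher, with medians of -0.07, 0.05 and 0.01. The heat shock list (12) had no called member, with the small heat shock protein Hspb1 at -1.47 (0.0506) just short of the threshold. Lists of stress and unfolded protein response genes (21), respiratory chain subunits (54), ribosomal proteins (43), inflammatory genes (22), cell cycle genes (26) and interferon response genes (18) also had none. Their medians were -0.06, 0.02, 0.07, 0.27, 0.20 and 0.22 in that order. Of the inflammatory genes 16 lay above 0 and 6 below, and the groups did not overlap upward in 8 and downward in 3. Of the interferon response genes 15 lay above 0 and 3 below, with 8 separated upward and 0 downward. Among all genes, 14.7% were separated upward and 12.2% downward.

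Markers of cell types served as a check of the label. Of the astrocyte markers, Slc1a3, a glutamate transporter, was bright, reaching 34949, 29348 and 31167 with both compounds and 34719, 29981 and 34949 with corticosterone. Brightness varied within the list. Its dimmest measured member averaged 130 over these 6 arrays, near the array medians of 110.5 to 111.2, and S100b and Clu were not measured. Of 15 measured astrocyte markers, Gfap was higher and Gjb6 lower, and the median was -0.06. Their summed level ranged from 107150 to 128134 with both compounds and from 87879 to 106356 with corticosterone. Sums of different lists rest on different probes, and the share of each cell type was not tested. The summed level of the 12 measured microglia markers ranged from 5600 to 6178 with both compounds, against 3544 to 4554 with corticosterone, 3470 to 4666 with RU486 alone and 4579 to 4708 with vehicle. Of those 12 markers, 11 lay above 0 in the RU486 comparison (median 0.39) and 1 was called, Fcer1g, an Fc receptor chain, at 0.78 (SE 0.15, limma adjusted p = 0.0401). At 4 h the same 12 markers had a median of -0.25, with 9 below 0 and 2 called lower, and at 6 h (10 arrays) all 12 lay above 0 with 2 called higher. In bulk samples, fewer cells of a type and less RNA per cell cannot be told apart, and the part of microglia in the higher genes was not tested. No marker of neurons (10 measured), oligodendrocyte lineage (11), endothelium (9) or fibroblasts (8) was called. The summed oligodendrocyte lineage markers ranged from 19555 to 25992 with both compounds and from 25905 to 30874 with corticosterone, ranges that just overlapped. Of these 11 markers, 6 lay below 0 and 5 above. Nkx2-2, called higher, was not on that list.

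**Figure D4:**
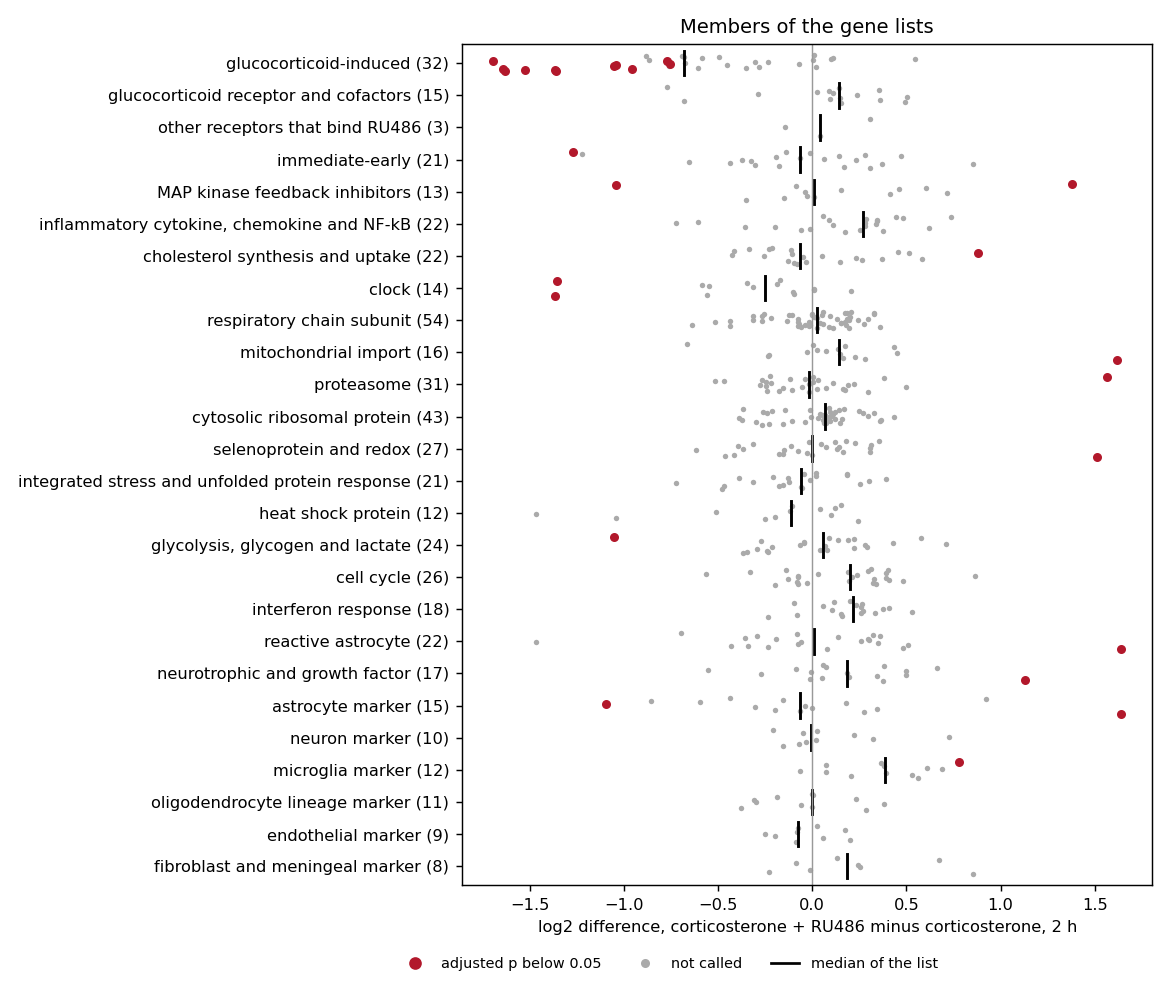
Log2 difference between corticosterone with RU486 and corticosterone at 2 h for each measured member of the 26 gene lists, with the number measured in brackets; red points passed an adjusted p of 0.05 and black bars are list medians. The glucocorticoid-induced list has 11 called members, all lower, and a median of -0.68, and no other list has more than 2 called members. The lists were chosen with earlier results of these data known.

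The same comparison at 4 h and 6 h shares no array with that at 2 h. At 4 h limma called 5169 genes, 2537 higher (13.4%) and 2632 lower (13.9%). Of the 32 lower genes of 2 h, 30 (93.8%) were called lower at 4 h, which is 1.14% of the 4 h list, and of the 106 higher genes 99 (93.4%) were called higher, 3.90% of that list. The sign was the same for all 32 lower genes and for 104 of the 106 higher genes. Fam107a differed by -2.79 at 4 h and Fkbp5 by -2.66, while Sgk1 was at -1.74 and Klf9 at -1.57. Of the higher genes, Bcl9l was at 2.12, Zhx2 at 2.09 and Gfap at 2.02.

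Kcnk2, a potassium channel gene, was the 1 named lower gene not called at 4 h (-0.15 against -0.60 at 2 h), beside the predicted gene Gm7609. Fcer1g, at -0.32 against 0.78, and Lyzl4, at -0.17 against 0.60, were the 2 higher genes with the opposite sign. These 4 genes were picked after their values were seen, apart from Fcer1g, which is a listed marker.

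At 6 h, 2 arrays stood apart, vehicle replicate 1 and corticosterone with RU486 replicate 3, with median correlations of 0.756 and 0.885 to the other arrays, where those of 2 h had 0.960 to 0.984. With all 12 arrays of 6 h, 25 genes were called, 4 higher (0.0211%) and 21 lower (0.111%). Without the 2, 2314 genes were called, 1108 higher (5.85%) and 1206 lower (6.37%), a fit added after the data were seen. In that fit 29 of the 32 lower genes (90.6%, and 2.40% of the 6 h list) and 77 of the 106 higher genes (72.6%, 6.95%) were called in the same direction, and the sign was the same for all 138. With all 12 arrays of 6 h, 10 of the 32 lower genes (31.2%) and 1 of the 106 higher genes (0.943%) were called in the same direction, and the sign was the same for all 32 lower and for 96 of the 106 higher genes. Called at 4 h and also in the fit of 10 arrays at 6 h were 29 of the lower and 76 of the higher genes. Fkbp5 stood at -3.18, Fam107a at -3.03, Bcat1 at -2.61 and Tsc22d3 at -2.32 at 6 h. Tested directly over all 36 arrays, the effect of added RU486 differed between 4 h and 2 h for 1 gene (0.00528%), Hif3a, and between 6 h and 2 h for 6 genes (0.0317%), in each case lower at the later time.

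**Figure D5:**
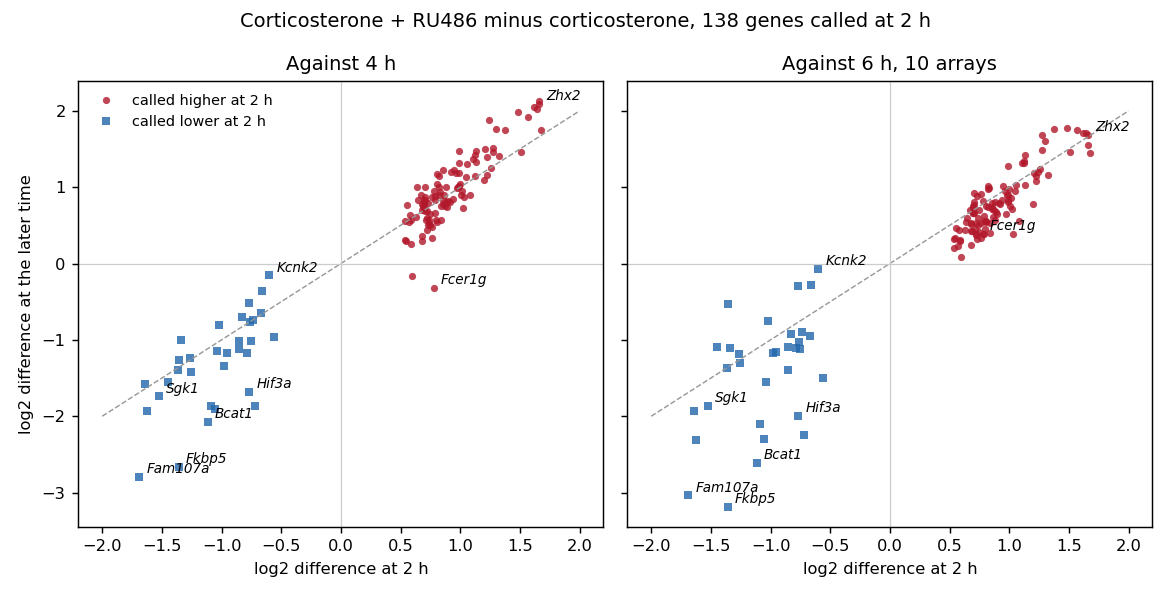
Log2 difference between corticosterone with RU486 and corticosterone at 4 h and at 6 h (10 arrays) against that at 2 h, for the 138 genes called at 2 h; the dashed line marks equal values. All 32 lower genes lie below 0 at both later times, with Fam107a at -2.79 and -3.03, and Fcer1g is 1 of the 2 higher genes below 0 at 4 h.

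Genes responding to the hormone itself could be chosen on arrays not used at 2 h. At 4 h, corticosterone against vehicle called 1452 genes higher (7.67%) and 2093 lower (11.1%). Of those 1452 genes, 1314 were below 0 when RU486 was added at 2 h, 27 were called lower and 0 higher, and their median was -0.31. Of the 2093 genes, 1904 were above 0, 71 were called higher and 0 lower, and their median was 0.27. With the replicate block, 100 of the 1452 genes were called lower and 174 of the 2093 higher. The same counts were 225 and 326 with the 6 arrays alone, 294 and 592 with 34 arrays and 475 and 608 with array weights, and with 1 array left out they ran from 1 to 15 and from 0 to 27. For all 18935 genes the median was 0.001, with 9424 below 0. Of the 32 genes lower with RU486 at 2 h, 27 were thus among the genes the hormone raised at 4 h, and of the 106 higher genes 71 were among those it lowered.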

How the data were processed

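RNA was extracted with Trizol and RNeasy columns and hybridised as biotin-labelled cRNA, per the labels' protocols, and the submitters' processing notes name GenomeStudio. The authors deposited linear intensity values for 45281 probes. The sorted columns differ by at most 1.15%, as after quantile normalization, and no background had been subtracted. A further table has 72 columns of per-sample values that match no label. They were not used, so detection p-values were not applied, and that table gave gene symbols only. Symbols were matched to RefSeq (GRCm38.p6): 11395 were current, 3041 were updated and 4499 kept.

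After log2 transformation, a probe was kept (28397 in all) if it exceeded the array median on at least 3 of 36 arrays, and the brightest probe stood for each of 18935 genes. Group means of the 12 arrays of 2 h were fitted with limma 3.58.1 (lmFit, eBayes; R 4.3.3), with 8 residual degrees of freedom and Benjamini-Hochberg adjustment over all genes. SE is that of the fit. Comparisons at 4 h and 6 h used their own 12 arrays, and differences between times all 36. The procedure was tested on simulated data. The number of arrays, 3 per group, limits the precision. No pair of replicates of 2 h was a duplicate.

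The groups share replicate numbers. Deviations of equally numbered arrays of corticosterone with RU486 and corticosterone at 2 h correlated at 0.355, 0.131 and 0.265. Unequal numbers that include a number 1 array gave -0.298 to -0.146. Array 2 with both compounds and array 3 of corticosterone gave 0.202, and array 3 with both and array 2 gave 0.101. These values set number 1 apart but do not tell numbers 2 and 3 from each other. Vehicle array 3 correlated at -0.112, -0.014 and -0.056 with the number 3 arrays of both compounds, corticosterone and RU486 alone. The numbers were taken as a possible pairing, and the blocked count, over all groups of 2 h, stands beside the main one. Differences, SE and p-values of single genes are from the fit without the block. The labels do not explain the numbers.

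Genes named are the 14 lowest and 14 highest called genes without overlap between groups (no predicted genes or clones), members of 26 gene lists (588 genes, 508 measured), genes called alike at all times, and the most extreme differences between times. Members and lists were chosen with earlier results of these data known. Alternatives covered the arrays in the fit, the block, array weights, the prior, the filter, probes and normexp background. A few results, including that of 1 gene list, are not reported here.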

Additional observations from a re-analysis of the deposited data

Results flagged for a closer look

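The effect of adding RU486 to corticosterone differed between times for 6 genes, all tested as an interaction in limma over all 36 arrays with adjustment over all genes. Between 4 h and 2 h the difference of effects was -0.92 for Hif3a (1 gene called, 0.00528% of those tested), whose effects were -1.68 at 4 h and -0.77 at 2 h. Between 6 h and 2 h it was -1.11 for Hif3a, -1.76 for Mapk4, an atypical MAP kinase, -1.44 for Slc24a4, a potassium-dependent sodium and calcium exchanger, -1.20 for Kcnt1, a sodium-activated potassium channel, -0.93 for Cntfr, the receptor of ciliary neurotrophic factor, and -0.91 for Slc10a6 (6 genes called, 0.0317%). At 2 h Mapk4 had 202, 199.8 and 181 with both compounds and 223, 206 and 201 with corticosterone, and Slc24a4 had 302, 227 and 248 against 253, 266 and 256.5. Both pairs of groups overlapped at 2 h. Cntfr, Kcnt1, Hif3a and Slc10a6 lay near or below the array median with both compounds at 2 h, and no background had been subtracted. Cntfr differed by 0.08 at 2 h, with overlapping groups. The 36-array fit includes the 2 arrays of 6 h that stand apart; without them 11 and 18 genes were called, with the 1 and the 6 among them. With 1 array left out, the 4 h difference of Hif3a was called in some fits and lost in others, at 0 to 1 calls.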

How the results depend on the processing

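The 138 calls for RU486 added to corticosterone at 2 h became 907 with the 6 arrays alone, 1949 with 34 arrays, 474 with the replicate block, 2705 with array weights, 31 with normexp at an offset of 16 and 1959 with replicates 2 and 3 alone (added after seeing the data), and 1 to 64 with 1 array left out. With replicates 2 and 3 alone, 20 glucocorticoid-induced genes were lower, and of the genes raised and lowered by the hormone at 4 h 385 were lower and 471 higher; all probes separately gave 15 and 46 for these 2 counts, and normexp at 16 gave 10 and 13. The count stayed within 1.5 times of 138 with all 36 arrays (150, of which 60 shared), a trended prior, other filters, all probes separately and an offset of 50. The cause was not tested. Corticosterone against vehicle (16) gave 9 with 6 arrays, 129 with 34, 33 with the replicate block, 219 with weights, 1150 with replicates 2 and 3 and 3 to 151 with 1 array left out, 151 being without vehicle replicate 1. Both compounds against vehicle (0) gave 1 with 34 arrays, and RU486 against vehicle (0) gave 604, 10 with weights and 159 with replicates 2 and 3. At 4 h (5169) the counts were 602 with 36 arrays, 3439 with 34 and 7991 with weights, with 3538 to 4670 leaving out 1 array. At 6 h (25) they were 265, 846 and 5044, 9 with the replicate block, 2314 with 10 arrays and 3 to 30 leaving out 1. The difference of 4 h and 2 h (1) gave 11 with 34 arrays, 152 with weights and 0 to 1 leaving out 1, and that of 6 h and 2 h (6) gave 18, 87 and 4 to 6.

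Over the 28 genes named by size and 18 alternatives each, none of 504 results reversed, 324 kept their call and 180 lost it, 134 of them with 1 array left out. Sgk1 lost its call under none of its 18. Deviations of equally numbered arrays of corticosterone with RU486 and corticosterone correlated at -0.04, -0.21 and 0.10 at 4 h. At 6 h they correlated at -0.18, -0.07 and -0.25. These values showed no pairing, and the labels do not settle whether there was one. The replicate block kept all 138 calls at 2 h and 5 of the 6 calls for the difference of 6 h and 2 h. With 3 arrays per group and no background subtracted, small differences of dim genes could not be resolved.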
